A study of Homo sapiens with 6 samples.

Results

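The 34 genes described here encode the chaperones and quality control machinery of the endoplasmic reticulum (ER), the sensors of the unfolded protein response, and the heat shock proteins of the cytosol and mitochondria. They were chosen by name, as the rows of the count table whose Ensembl identifiers carry these symbols, and with earlier results of these data known. All 34 were found among the 27264 gene rows, and all 34 passed the filter on low counts that left 11732 genes to test. The study used 3 clones of DLD-1, a line grown from a human colon cancer with epithelial features, which are named WT2, WT5 and WT37. The sample descriptions of all 6 libraries write the line as DLD.1_TR21 and do not explain TR21. Each clone gave 1 library with doxycycline (+DOX) and 1 without it (−DOX), so that each condition held 3 libraries. All 6 libraries carry the genotype label ZEB2 WT, and the title of the series concerns an epithelial to mesenchymal transition mediated by ZEB2, a transcription factor that represses epithelial genes. The labels call +DOX cells mesenchymal and −DOX cells epithelial. The labels give neither the dose nor the duration of doxycycline. No library came from doxycycline-treated cells without this genotype, so an effect of the drug alone and an effect of ZEB2 cannot be told apart.

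Libraries were made from the 3′ ends of mRNA with the QuantSeq FWD kit and held between 6234798 and 7120698 reads in genes with DOX, against 5440093 to 7164426 without it. ZEB2 itself had 20, 9 and 22 reads with DOX in clones WT2, WT5 and WT37, against 9, 5 and 3 reads without it. The labels do not describe the ZEB2 construct, so it is not known if its 3′ end would be counted for this gene, and these reads are no measure of how far ZEB2 was induced. A summed level of 6 epithelial markers was 3410 to 4840 CPM (the read count scaled to library size) in +DOX cells and 5640 to 7390 CPM in −DOX cells. All 6 were detected, and KRT8 and KRT18 made up most of the sum. CDX2, on the same list, was higher with DOX in each clone, with 4294, 3824 and 6089 reads in WT2, WT5 and WT37 with DOX, against 2491, 2732 and 4307 reads without it. A summed level of 5 mesenchymal genes was 9.53 to 17.6 CPM in +DOX cells and 11.4 to 15.6 CPM in −DOX cells. FN1 had the most reads of the 5 in each library and was lower with DOX in each clone (25, 58 and 82 reads, against 47, 66 and 98 without it), while VIM (5, 8 and 15 reads, against 1, 3 and 5) and ZEB1 (4, 9 and 11 reads, against 1, 1 and 1) were higher with DOX in each clone. Markers of fibroblasts summed to at most 1.70 CPM with DOX and 1.78 CPM without it, and COL1A2 was at 0. Leukocyte markers summed to 4.93 to 11.1 CPM with DOX and 4.44 to 9.45 CPM without it. Endothelial markers reached at most 0.164 CPM with DOX and 0.499 CPM without it, with PECAM1 at 0. The part of these differences in the results below was not tested. In bulk RNA, fewer cells of a kind and less RNA per cell cannot be told apart.

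None of the 34 genes passed edgeR's quasi-likelihood test for DOX over all 6 libraries, with or without the clone as a block, while HSPB1 passed with the block in DESeq2 and limma-voom. Most lay slightly lower with the drug. With the clone as a block, 29 of 34 had a log2 fold change (+DOX over −DOX) below 0, or 85.3%, against 48.9% of all genes tested, and their median was −0.12, against 0.01 for all genes. All 9 ER chaperones were on that side over all 6 libraries, but CRELD2, DNAJB9 and DNAJC3 changed sign when a clone or library was left out. Of all 34 members, 15 changed sign in this way. Within clones, 9 members were lower with DOX in all 3, or 26.5%, against 17.2% of all genes. The clearest departure was HSPB1, a small heat shock protein of the cytosol, which was higher in all 3 clones by 1.30-fold in the blocked fit but missed the threshold in edgeR's quasi-likelihood test (adjusted p = 0.0592). Differences between clones reached the threshold for PDIA4 and HSPA1B, or 5.88% of members, against 6.84% of all genes, and HSPA1B did not pass in the DESeq2 likelihood ratio test.

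As background, proteins that enter the ER fold there with the help of BiP (HSPA5) and its partners, and unfolded proteins release the sensors IRE1 (ERN1), ATF6 and PERK. IRE1 splices XBP1 mRNA, and spliced XBP1 and cleaved ATF6 raise transcription of ER chaperones, disulfide isomerases and degradation factors. Spliced XBP1 and cleaved ATF6 act in part through the ER stress response element. The heat shock response is a separate programme in which the factor HSF1 binds inverted GAA repeats and raises the cytosolic chaperones. Secretory epithelia such as the intestinal lining depend on the ER programme. Splicing of XBP1 and cleavage of ATF6 are not seen in 3′ end counts, which report the amount of each mRNA only.

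The promoters of these genes were read from RefSeq for the letters of both elements, which the transcription factors of the programmes named above bind. Windows from 250 bases before to 50 bases after the transcription start (build GRCh38.p14) were found for 33 members. PDIA3 had no entry. The full ER stress response element, CCAAT and CCACG with 9 bases of any kind between them on either strand, occurred in 6 of 33 windows, or 18.2%, against 27 of 35116 windows of all genes, or 0.08%. Its part CCACG alone, which overlaps the full element, occurred in 22 of 33 windows, or 66.7%, against 38.09% of all windows. The core of the unfolded protein response element, TGACGTGG, whose last letters are CCACG read on the opposite strand, occurred in HYOU1 alone, or 3.0% of members, against 0.73%. The inverted repeat of the heat shock element, GAA, TTC and GAA or TTC, GAA and TTC with 2 bases of any kind between neighbours, also on both strands, occurred in HSPA8 and DNAJA1, or 6.1% of members, against 0.49%. The members were chosen by name as genes of these programmes, so a share above that of all windows is no separate finding about them. Repeated windows of a member were dropped, while those of other genes were kept. A match is a description of the letters, not evidence of a site. The matches to the full ER element are shown 5′ to 3′ in the direction of CCAAT, with the fixed letters in capitals.
CANX: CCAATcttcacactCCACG
HSPA5: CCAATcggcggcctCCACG
HSP90B1, upstream match: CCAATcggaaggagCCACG
HSP90B1, downstream match: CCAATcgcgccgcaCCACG
CALR: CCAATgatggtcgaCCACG
XBP1: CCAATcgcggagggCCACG
CRELD2: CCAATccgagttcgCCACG

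**Figure D1:**
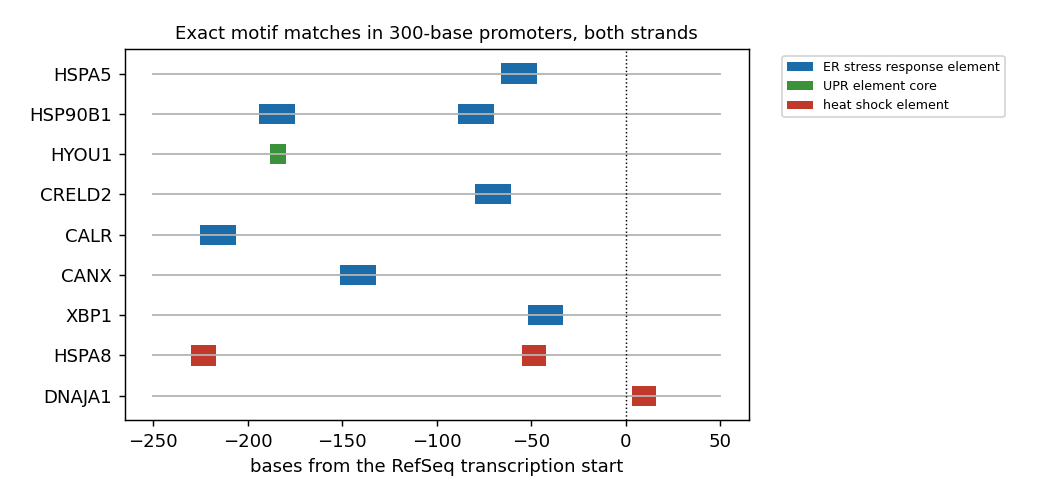
Positions of exact matches to the full ER stress response element, the core of the unfolded protein response element and the heat shock element in the 9 member promoters that hold one of these 3 (matches to CCACG alone are not drawn), on the x axis in bases from the RefSeq transcription start, with 1 row per gene and colour for the motif. Matches to the ER stress response element lie upstream of the start in all 6 genes that hold it, and HSPA8 holds a pair of heat shock elements.

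Full promoter windows are printed for 3 genes. HSPA5 is the main HSP70 of the ER, and its window at chr9:125241294-125241593 on the minus strand holds a match to the ER element, in capitals. HSPA8 is the constitutive cytosolic HSP70, and its window at chr11:123062087-123062386 on the minus strand holds a pair of heat shock elements whose repeats are in capitals. HSPB1 is shown because it was the member closest to the threshold. Its window at chr7:76302423-76302722 on the plus strand holds none of the full matches. Only exact matches were sought, so a missing match is no evidence that a site is absent.
HSPA5: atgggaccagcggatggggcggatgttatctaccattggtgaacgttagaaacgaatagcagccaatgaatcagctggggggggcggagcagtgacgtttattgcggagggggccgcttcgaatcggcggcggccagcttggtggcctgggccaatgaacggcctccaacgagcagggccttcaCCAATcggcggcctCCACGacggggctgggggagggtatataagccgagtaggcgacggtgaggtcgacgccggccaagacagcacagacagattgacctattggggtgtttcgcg
HSPA8: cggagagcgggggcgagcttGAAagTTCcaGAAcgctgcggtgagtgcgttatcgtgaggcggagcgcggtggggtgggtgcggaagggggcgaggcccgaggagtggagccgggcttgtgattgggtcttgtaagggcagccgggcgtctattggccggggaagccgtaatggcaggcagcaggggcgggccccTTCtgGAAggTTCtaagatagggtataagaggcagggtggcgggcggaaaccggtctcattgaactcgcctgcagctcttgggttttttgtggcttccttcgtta
HSPB1: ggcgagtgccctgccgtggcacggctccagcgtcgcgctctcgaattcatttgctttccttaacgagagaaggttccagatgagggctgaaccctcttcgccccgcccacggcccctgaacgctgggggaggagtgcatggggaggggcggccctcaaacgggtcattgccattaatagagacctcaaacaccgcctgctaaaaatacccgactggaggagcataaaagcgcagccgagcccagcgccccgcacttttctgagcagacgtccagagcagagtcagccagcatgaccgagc

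The comparison of +DOX with −DOX cells asks how the programmes differ when the drug is present. Without the clone as a block, edgeR's quasi-likelihood test called 0 of 11732 genes at an adjusted p under 0.05, or 0%, and 709 at an unadjusted p under 0.05. DESeq2 called 57 genes and limma-voom 0, with 0 members in both. The 3 clones occur in both conditions, and with the clone as a block edgeR called 152 genes, or 1.30%, of which 77 were higher (0.656%) and 75 lower (0.639%). The blocked count was 736 without clone WT5, 8 without WT2 and 5 without WT37. Members numbered 0 of 34 among the calls of both edgeR fits. At an unadjusted p under 0.05, 3 members stood without the block, against 6.04% of all genes, and 10 of 34 with it, against 12.9% of all genes. Standard errors with the block ran from 0.08 to 0.26 on the log2 scale, with a median of 0.10. Each standard error (SE) given here was derived as the absolute log2 fold change divided by the square root of edgeR's F value. A missed threshold does not show that these genes were equal between conditions.

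Within clones, the 34 members had a median log2 change of −0.05 for WT2, −0.15 for WT5 and −0.18 for WT37, while all genes tested lay at 0.00 in each clone. Members below 0 numbered 20 in WT2, 23 in WT5 and 25 in WT37. In CPM without the TMM factors the medians were −0.009 for WT2, −0.155 for WT5 and −0.104 for WT37. Changes with a 95% counting interval off 0 made up 41.2% of members in WT2, 64.7% in WT5 and 70.6% in WT37, against 26.0%, 29.4% and 37.4% of all genes. These intervals cover counting error only and narrow as a gene's reads increase. Across the 34 members the changes in WT2 and WT37 correlated with r = 0.23 (all genes, 0.45), those in WT5 and WT37 with 0.24 (all genes, 0.16), and those in WT2 and WT5 with 0.01 (all genes, 0.06). All points of a clone come from the same pair of libraries, so these values are a description.

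Taking the 3 libraries of each condition together, 5 members had all +DOX levels below all −DOX levels, or 14.7%, against 6.08% of all genes. They were HSPA5, MANF, SYVN1, HSP90AB1 and HSPE1. HSPB1 and EDEM1 had all +DOX levels above all −DOX levels, or 5.88% of members, against 5.32% of all genes. An exact two-sided permutation test of such a gene alone gives p = 0.1, the smallest that 3 against 3 libraries allow. Within clones, 9 members were lower with DOX in all 3 (26.5%, against 17.2% of all genes) and 2 were higher in all 3 (5.88%, against 17.8% of all genes).

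**Figure D2:**
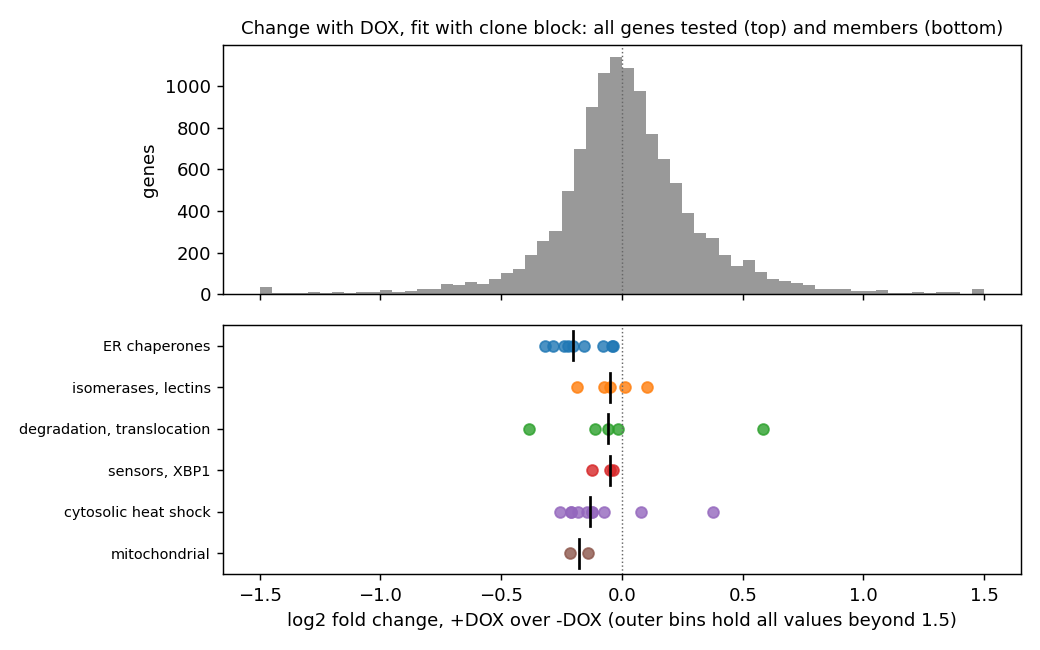
Histogram of the log2 fold change with DOX of all 11732 genes tested (top) and the members by role, with a black line at each role's median (bottom), both from the fit with the clone block. Members lie mostly left of 0, and EDEM1 and HSPB1 stand to the right.

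The sensors and the transcription factor XBP1 gave no value past the threshold. ERN1, the sensor IRE1, had 6.90, 6.14 and 12.4 CPM with DOX in clones WT2, WT5 and WT37, against 6.18, 8.99 and 10.8 CPM without it. The groups overlap and the clones differ in direction (log2 fold change with the block −0.05 ± 0.22, SE). It rests on 32 to 95 reads per library. XBP1, the factor downstream of IRE1, had 124, 148 and 81.3 CPM with DOX, against 120, 138 and 118 CPM without it. Its lowest library was WT37 with DOX. Within WT37 its log2 change was −0.54, against 0.05 in WT2 and 0.11 in WT5, and the blocked log2 fold change was −0.12 ± 0.13 (SE, adjusted p = 0.729 in edgeR). Without clone WT37 the blocked value was 0.08. ATF6, the membrane-bound sensor and factor, had 67.4, 65.2 and 59.1 CPM with DOX, against 72.6, 62.3 and 62.0 CPM without it.

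All 9 ER chaperones and co-chaperones had a blocked log2 fold change below 0 over all 6 libraries, with a median of −0.20, and none passed the test. With a clone or library left out, the log2 fold change ranged from −0.172 to 0.108 in CRELD2, from −0.207 to 0.152 in DNAJB9 and from −0.173 to 0.014 in DNAJC3. Their summed level was 4061, 3578 and 3623 CPM with DOX in WT2, WT5 and WT37, against 4617, 4117 and 4616 CPM without it. HSPA5 (ENSG00000044574, chr9:125234853-125241330 on the minus strand, GENCODE 29 on GRCh38), the ER HSP70 known as BiP, makes up much of that sum. HSPA5 had 1913, 1793 and 1718 CPM with DOX, against 2205, 2017 and 2398 CPM without it. The groups do not overlap. Its means were 1808 ± 98.1 CPM with DOX and 2207 ± 190 CPM without it (SD, n = 3 each), and its log2 fold change was −0.29 ± 0.12 without the block (SE, adjusted p = 0.782 in edgeR) and −0.29 ± 0.09 with it (adjusted p = 0.176).

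DNAJB11, an HSP40 cofactor of BiP, had 176, 173 and 139 CPM with DOX, against 220, 214 and 175 CPM without it. Within clones its changes were close to each other, at −0.32 in WT2, −0.30 in WT5 and −0.33 in WT37. Its groups nevertheless overlap, because WT37 was the lowest clone in both conditions, and the blocked log2 fold change was −0.32 ± 0.09 (SE, adjusted p = 0.125 in edgeR). MANF, a secreted factor that resides in the ER lumen, had 435, 386 and 387 CPM with DOX, against 539, 447 and 443 CPM without it. It was lower in each clone, with a blocked log2 fold change of −0.24 ± 0.09 (SE, adjusted p = 0.237 in edgeR). HSP90B1, the ER HSP90 known as GRP94, had 1042, 681 and 943 CPM with DOX, against 1088, 910.1 and 1073 CPM without it. The low library is WT5 with DOX.

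The other 5 ER chaperones varied by clone. SDF2L1, a partner of BiP, had 281, 342 and 245 CPM with DOX, against 325, 339 and 326 CPM without it, and only its WT5 value was not lower. CRELD2, an ER-resident protein that can be secreted, had log2 changes of −0.12 in WT2, 0.25 in WT5 and −0.23 in WT37. DNAJC3, an inhibitor of the kinase PERK and a cofactor of BiP, ran from 58.2 to 69.9 CPM with DOX and from 65.1 to 70.3 CPM without it. HYOU1, an ER chaperone of the HSP110 kind, and DNAJB9, an HSP40 of the ER, rested on 48 to 98 reads per library, with wide counting intervals.

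**Figure D3:**
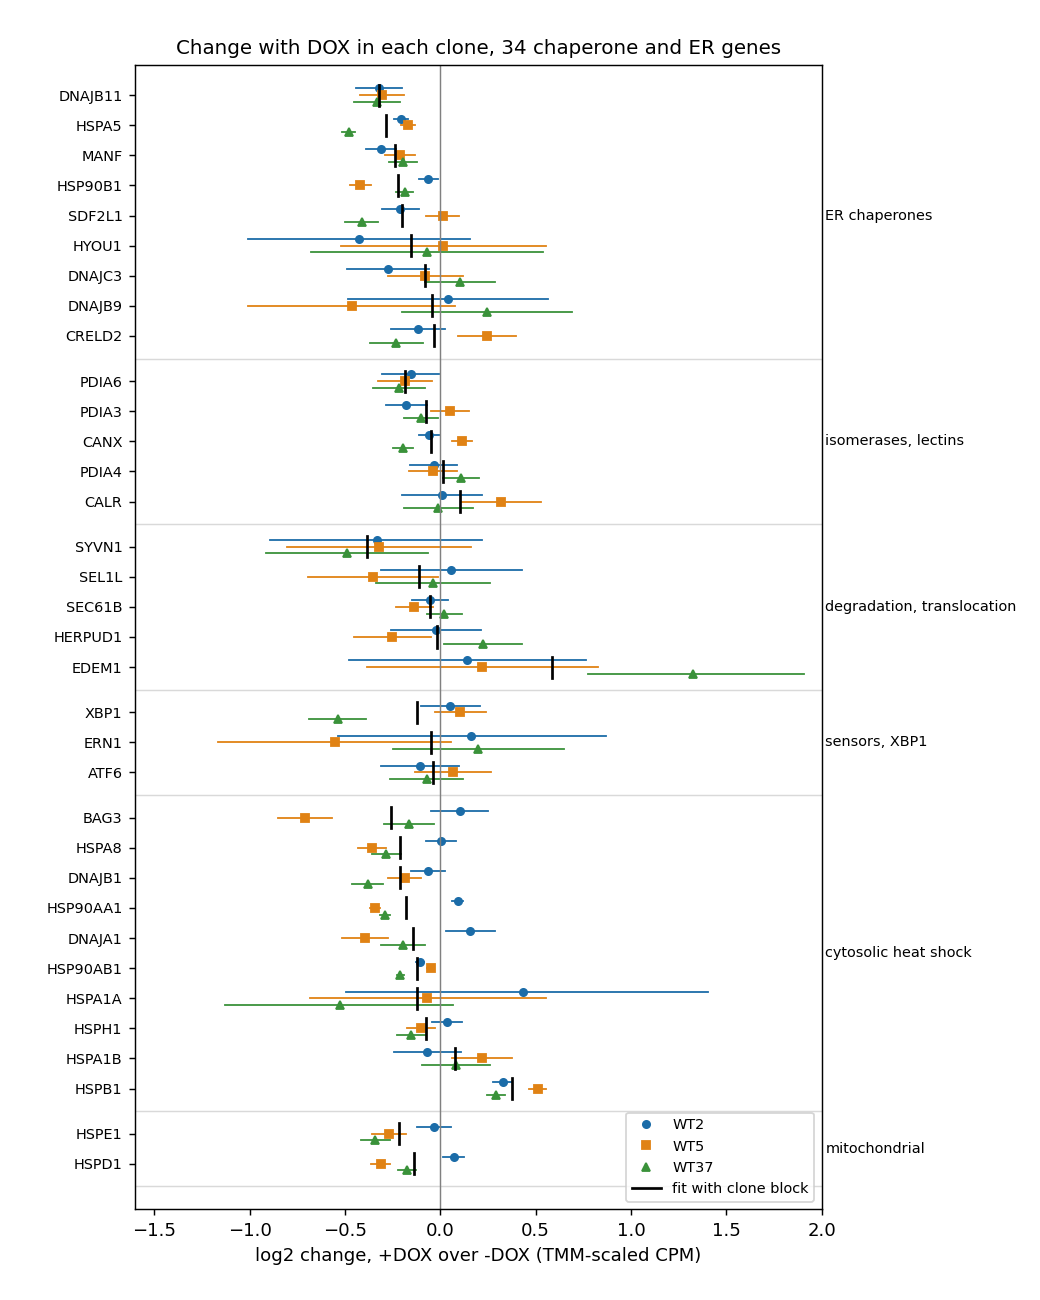
The log2 change with DOX of each of the 34 members within clones WT2, WT5 and WT37 (symbols, with 95% counting intervals) and the estimate of the fit with the clone block (black bar), on the x axis, grouped by role. DNAJB11, HSPA5 and MANF lie left of 0 in all clones, HSPB1 lies right of 0 in all clones, and HSP90AA1, HSPD1 and DNAJA1 lie right of 0 in WT2 and left of 0 in WT5 and WT37.

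Disulfide isomerases and lectin chaperones lay nearer to 0, with a median blocked log2 fold change of −0.05. PDIA6, a disulfide isomerase that acts on IRE1 and other ER clients, had 127, 117 and 109 CPM with DOX, against 142, 133 and 127 CPM without it. It was lower in each clone, though the groups overlap narrowly, and its blocked log2 fold change was −0.19 ± 0.09 (SE, adjusted p = 0.418 in edgeR). CALR, a lectin chaperone that holds glycoproteins, had 66.2, 66.1 and 66.9 CPM with DOX, against 65.9, 52.9 and 67.4 CPM without it. Its difference came from the WT5 library without DOX. The membrane lectin CANX, the isomerase PDIA3 and the isomerase PDIA4 had blocked log2 fold changes of −0.05, −0.08 and 0.01.

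Among the genes of ER-associated degradation and translocation, the values point both ways. EDEM1, which directs misfolded glycoproteins to degradation, had 8.71, 8.13 and 13.1 CPM with DOX, against 7.92, 6.99 and 5.21 CPM without it. All 3 +DOX levels exceed the −DOX levels, but the difference is mostly that of WT37, with 100 reads with DOX and 38 without it. The blocked log2 fold change was 0.59 ± 0.26 (SE, adjusted p = 0.357 in edgeR). SYVN1, the ubiquitin ligase HRD1, had 9.04, 10.3 and 10.9 CPM with DOX, against 11.4, 12.8 and 15.2 CPM without it. It was lower in each clone, at a blocked log2 fold change of −0.39 ± 0.18 (SE, adjusted p = 0.388 in edgeR). SYVN1 rests on 55 to 111 reads and overlaps FAU, a ribosomal gene on the same strand with 18301 to 23220 reads. Reads of the shared stretch cannot be told apart. Reads ambiguous between genes were left out of the gene counts, so such reads may be missing from the count of SYVN1. SEL1L, the partner of HRD1, HERPUD1, a membrane adaptor of the same complex, and SEC61B, a subunit of the translocation channel, had blocked log2 fold changes of −0.11, −0.02 and −0.06.

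The cytosolic heat shock proteins had a median blocked log2 fold change of −0.13, with 8 of 10 below 0, but the clones differed, with medians of 0.06 for WT2, −0.14 for WT5 and −0.20 for WT37. HSPB1 (ENSG00000106211, chr7:76302544-76304295 on the plus strand) is the small heat shock protein HSP27. HSPB1 had 1242, 1460 and 1133 CPM with DOX, against 990.4, 1024 and 926 CPM without it. Its groups do not overlap, and its means were 1278 ± 166 CPM with DOX and 980.1 ± 49.5 CPM without it (SD, n = 3 each). The log2 fold change was 0.38 ± 0.13 without the block (SE, adjusted p = 0.645 in edgeR) and 0.38 ± 0.09 with it (adjusted p = 0.0592). It passed with the block in DESeq2 (adjusted p = 0.0381) and in limma-voom (adjusted p = 0.0438), and in blocked edgeR without clone WT5 (adjusted p = 0.0478). Blocked edgeR gave an adjusted p of 0.317 without WT2 and of 0.443 without WT37. HSPB1 shares 36.3% of the 50-base stretches of its 3′ end with other annotated genes, and its pseudogenes HSPB1P1 and HSPB1P2 had 9, 7, 7 and 3, 0, 1 reads with DOX, against 4, 3, 8 and 0, 1, 3 without it. The next highest shares among the members were 18.1% in HSPA8, 15.1% in HSPE1 and 13.6% in HSPD1. Multimapping reads are not in the gene counts, so reads of such stretches may be missing for these genes.

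BAG3, a cofactor of HSP70 that binds HSPB8, had 136, 99.8 and 120 CPM with DOX, against 127, 163 and 134 CPM without it. Its largest change was in WT5, at −0.71 on the log2 scale, against 0.10 in WT2 and −0.17 in WT37. HSP90AB1, the constitutive cytosolic HSP90, had 6118, 6071 and 5882 CPM with DOX, against 6593, 6288 and 6802 CPM without it. The groups do not overlap and the log2 fold change is small, at −0.12 ± 0.08 with the block (SE, adjusted p = 0.564 in edgeR). HSP90AA1, the inducible cytosolic HSP90, had 3553, 2932 and 2680 CPM with DOX, against 3336, 3718 and 3278 CPM without it. It was higher in WT2 and lower in WT5 and WT37. Each transcript is counted once, at its 3′ end, so CPM values are not divided by length, and on that scale HSP90AB1 had the highest level of the 34 genes and HSPA1A the lowest.

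Of the inducible HSP70 pair, HSPA1A had 4.44, 6.99 and 5.62 CPM with DOX, against 3.28, 7.33 and 8.08 CPM without it, from 17 to 59 reads. HSPA1B had 93.9, 111 and 72.7 CPM with DOX, against 98.3, 95.6 and 68.6 CPM without it. The pair encodes the same protein in background knowledge, and their 3′ ends share 0 of 251 stretches of 50 bases, so reads at these ends can be told apart. HSPA8, the constitutive HSP70, DNAJB1, its HSP40 cofactor, and HSPH1, an HSP110 exchange factor, had blocked log2 fold changes of −0.21, −0.21 and −0.07. DNAJA1, an HSP40 cofactor of the cytosol, had log2 changes of 0.16 in WT2, −0.40 in WT5 and −0.19 in WT37.

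**Figure D4:**
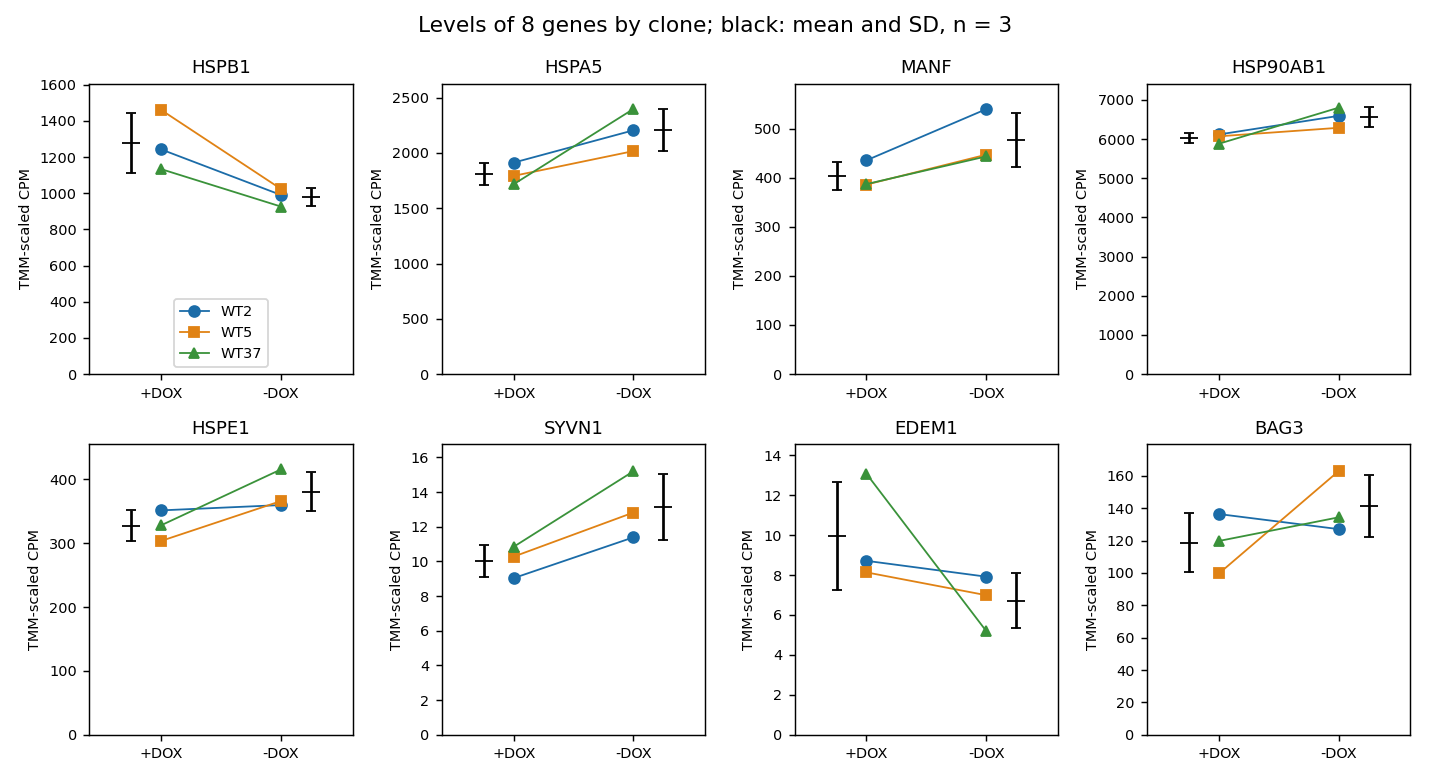
Levels in TMM-scaled CPM of 8 members in +DOX (left) and −DOX (right) libraries, with lines joining the libraries of 1 clone and black bars giving the mean and SD over 3 clones. HSPB1 and EDEM1 are higher with DOX in all clones, HSPA5, MANF, HSP90AB1, HSPE1 and SYVN1 are lower with DOX in all clones, and BAG3 is lower in WT5 and WT37 only.

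Mitochondrial chaperonins are encoded head to head on chromosome 2, and their promoter windows overlap by 204 bases. HSPE1, the co-chaperonin HSP10, had 351, 304 and 328 CPM with DOX, against 360, 366 and 415 CPM without it. Its groups do not overlap, and its blocked log2 fold change was −0.22 ± 0.09 (SE, adjusted p = 0.346 in edgeR). HSPD1, the chaperonin HSP60, had 1010, 868 and 868 CPM with DOX, against 962, 1078 and 979 CPM without it. It was higher in WT2, at 0.07 on the log2 scale, and lower in WT5 and WT37. The 2 genes lie on opposite strands and overlap, and no source used here says if reads were counted by strand. Reads in the overlap may thus have been assigned by strand or left out as ambiguous between genes. The same holds for all 16 members that have a gene on the opposite strand.

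The clones differed at a wider scale. Over the 6 libraries, with condition as a term, edgeR called 802 of 11732 genes different between clones, or 6.84%, and 2 of 34 members, or 5.88%, near that share. Each clone has 1 library per condition, so this test takes the +DOX and −DOX libraries of a clone as its replicates. It assumes that DOX acts alike in all clones, which was not tested. At an unadjusted p under 0.05 there were 11 members, or 32.4%, against 24.8% of all genes. By pair, the test called 5.83% of all genes for WT37 over WT2, 5.92% for WT37 over WT5 and 1.02% for WT5 over WT2, and it called 0, 2 and 0 members. PDIA4 (ENSG00000155660, chr7:149003062-149028641 on the minus strand in GRCh38), a disulfide isomerase of the ER, had 248 and 230.4 CPM in WT37 with and without DOX, against 159 and 164 CPM in WT5, and 192 and 196 CPM in WT2. WT37 stood highest and WT5 lowest. The log2 difference was 0.57 ± 0.11 for WT37 over WT5 (SE, adjusted p = 0.0133 in edgeR). HSPA1B (ENSG00000204388, chr6:31827735-31830255 on the plus strand) had 72.7 and 68.6 CPM in WT37, against 111 and 95.6 CPM in WT5, and 93.9 and 98.3 CPM in WT2, with a log2 difference of −0.55 ± 0.13 for WT37 over WT5 (SE, adjusted p = 0.0268 in edgeR). WT37 was lowest. PDIA4 remained among the calls in the DESeq2 likelihood ratio test, but HSPA1B did not. With a clone left out, the calls were PDIA4 alone without WT2, 8 members without WT5 (both genes among them) and 0 without WT37. Over all genes the calls moved too, to 406 without WT2, 1782 without WT5 and 129 without WT37.

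The next members by adjusted p between clones were HSP90B1 (0.0650), CANX (0.0963) and XBP1 (0.110) in edgeR. HSP90B1 averaged 1008 CPM in WT37, 795 CPM in WT5 and 1065 CPM in WT2. CANX averaged 791 CPM in WT37, 867 CPM in WT5 and 1032 CPM in WT2. XBP1 averaged 99.6 CPM in WT37, 143 CPM in WT5 and 122 CPM in WT2. On these averages over both conditions, WT5 was lowest for HSP90B1, and WT37 for CANX and XBP1. In the −DOX libraries alone, CANX had 844 CPM in WT37 and 833 CPM in WT5. XBP1 had 118 CPM in WT37 and 120 CPM in WT2 without DOX, and its WT37 library with DOX was at 81.3 CPM. ERN1, with an adjusted p of 0.125 in edgeR, averaged 11.6 CPM in WT37, 7.56 CPM in WT5 and 6.54 CPM in WT2. None of these passed the threshold.

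**Figure D5:**
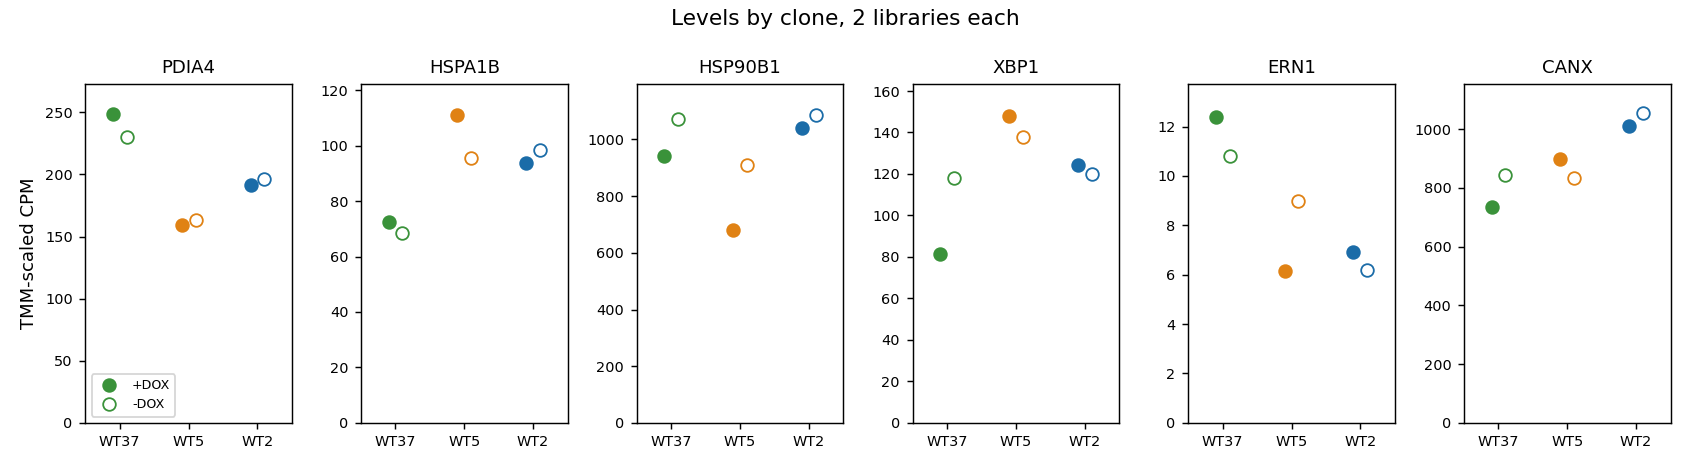
Levels in TMM-scaled CPM of 6 members in the clones WT37, WT5 and WT2, with filled points for +DOX and open points for −DOX. PDIA4 is highest and HSPA1B lowest in WT37, and XBP1 in WT37 is lower with DOX.

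A wider list of 98 genes from the same pathways was read alongside, of which 89 passed the filter. None passed the DOX threshold in edgeR with or without the block (12 and 2 at an unadjusted p under 0.05), nor in unblocked DESeq2 or limma-voom. Without clone WT5 the blocked fit called 3. Their median blocked log2 fold change was −0.05, and 53 were below 0, or 59.6%. All 11 genes of ER translocation tested were below 0, at a median of −0.11. Of the 8 subunits of the cytosolic chaperonin TRiC, 7 were below 0, at a median of −0.13. The 19 other ER folding genes lay at a median of 0.02. Between clones, 4 of the 89 passed, or 4.49%, against 6.84% of all genes: the oxidase ERO1B, the reductase DNAJC10, the HSP70 exchange factor HSPBP1 and the TRiC subunit CCT5. DNAJC10 averaged 87.2 CPM in WT37, 122.5 CPM in WT5 and 129.6 CPM in WT2.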

How the data were processed

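RNA from DLD-1 clones WT2, WT5 and WT37, with and without doxycycline, was sequenced as QuantSeq FWD 3′ libraries, per the labels. The deposited values are raw read counts per Ensembl gene; the submitters' processing notes name GRCh38 and DESeq2, while the aligner, the counter, the annotation and the use of strand are not stated in any source used. Counts were scaled by TMM and tested with edgeR 4.0.16 (R 4.3.3), by a robust quasi-likelihood fit without a block and with the clone as a block, on the 11732 genes kept by filterByExpr, with Benjamini-Hochberg adjustment and a threshold of 0.05. The clone names in the labels give the pairing. Libraries of the same clone deviated from their group means together (r = 0.489 in WT2, 0.284 in WT5 and 0.53 in WT37). All other pairs were below 0. Deviations sum to 0 within a group, so values below 0 in the other pairs largely follow from those above 0 in the same clone. CPM are TMM-scaled. Within-clone changes carry exact 95% counting intervals. The clone test had condition as a term. The design text names the clones as biological replicates; each is 1 line. DESeq2 1.42.0 and limma 3.58.1 were alternatives. The edgeR fits for DOX, with and without the block, and for the clones were tested on simulated data. The planted log2 change was 2, larger than any change of a member described here, and the DOX simulation held no difference between clones. The DESeq2 and limma-voom fits were not tested in this way. Rows that name no gene stayed out: per library they held 4.29% to 5.25% of reads as unmapped, 11.8% to 16.0% as multimapping, 8.72% to 11.7% outside features and 6.86% to 7.40% as ambiguous between genes. Named genes were the members past a threshold, the 2 of each role with the largest blocked change, and XBP1, ERN1, ATF6, HSPA1A and HSPA1B; all other members are described more briefly. The members and lists were chosen with earlier results of these data known.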

Additional observations from a re-analysis of the deposited data

Results flagged for a closer look

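In 6 of the 34 genes, or 17.6% (all genes tested, 995 of 11732, or 8.5%), at least 1 clone had a within-clone interval above 0 and another an interval below 0. These intervals cover counting error only and narrow as reads increase, so a gene with many reads is flagged at a small change. HSP90AA1, for example, had 17274 to 23932 reads per library. The 2 shares were not matched for read number. Each clone gave 1 library per condition, so the difference between clones was not tested. On the log2 scale, +DOX over −DOX, HSP90AA1 was at 0.09 in WT2, −0.34 in WT5 and −0.29 in WT37. DNAJA1 was at 0.16 in WT2, −0.40 in WT5 and −0.19 in WT37. HSPD1 was at 0.07 in WT2, −0.31 in WT5 and −0.17 in WT37. These 3 genes, all heat shock chaperones of the cytosol or mitochondria, were above 0 in WT2 and below 0 in the other clones. CANX was at 0.11 in WT5, −0.06 in WT2 and −0.20 in WT37. CRELD2 was at 0.25 in WT5 and −0.23 in WT37. HERPUD1 was at 0.22 in WT37 and −0.25 in WT5.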

How the results depend on the processing

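The count of all genes called for DOX was 0 without a block. It was 206 with no filter on low counts, 57 with DESeq2, and 0 to 35 when 1 library or clone was left out, the highest without the +DOX library of WT5. With the clone block it was 152, with size factors 155, with DESeq2 127, with limma-voom 185, with a filter of 3 CPM in 3 libraries 142 and with a non-robust fit 183; leaving out a clone gave 5 to 736, the highest without WT5. The 3 CPM filter and the non-robust fit were chosen after seeing the data. With all libraries kept, the block itself changed no call of a member in edgeR. The 34 members gave 0 calls without the block and 1, HSPB1, in blocked DESeq2, blocked limma-voom and the block without WT5. The other pathway genes gave 0, and 3 in the block without WT5: MOGS, ERO1A and MBTPS1, named after their values were seen. The members' median stayed below 0 throughout, and within clones it was −0.104 in WT37 without TMM scaling (−0.180 with it) and −0.009 in WT2 (−0.045 with it). Between clones, the members gave 2 calls, 5 with no filter, 1 in the DESeq2 likelihood ratio test and 0 to 8 when a clone was left out, for all genes 802, 1783, 436 and 129 to 1782. The cause of these shifts was not tested. With libraries or clones left out, the log2 fold change with DOX took both signs in 15 members: −0.088 to 0.039 in ATF6, −0.006 to 0.165 in CALR, −0.155 to 0.073 in CANX, −0.17 to 0.11 in CRELD2, −0.21 to 0.15 in DNAJB9, −0.173 to 0.014 in DNAJC3, −0.42 to 0.19 in ERN1, −0.15 to 0.12 in HERPUD1, −0.44 to 0.13 in HSPA1A, −0.073 to 0.233 in HSPA1B, −0.132 to 0.018 in HSPH1, −0.16 to 0.16 in PDIA4, −0.161 to 0.040 in SEC61B, −0.199 to 0.007 in SEL1L and −0.29 to 0.13 in XBP1. The other 19 members kept their sign in every setting. A planned stricter filter of 1 CPM in 3 libraries tested more genes than the main one. The highest blocked standard error of a member was 0.26, in EDEM1, with 38 to 100 reads per library.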
